A study of Arabidopsis thaliana with 8 samples.

Results

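The tau and phi glutathione transferases of *Arabidopsis thaliana* were followed in rosette leaves of the *kaku4* mutant and of wild type (WT). Members were taken by name: the 28 tau genes *GSTU1* to *GSTU28* and the 13 phi genes *GSTF2* to *GSTF14*, 41 of the 24492 loci listed. Of these, 38 had a value, 26 tau and 12 phi, whereas *GSTU14*, *GSTU21* and *GSTF13* were not analysed here. The filter on low values, 0.1 FPKM or more when averaged across libraries, was passed by 36 members, 24 tau and 12 phi, and left out *GSTU15* and *GSTU22*. FPKM counts fragments relative to the length of a transcript and to the size of its library, so levels of different genes are compared per length.

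The study asked which genes lie downstream of KAKU4, a plant-specific component of the nuclear lamina, while leaves age. Leaves of 6-week-old rosettes gave 3 RNA-seq libraries of *kaku4* and 3 of WT (Col-0). The mutant is 1 homozygous T-DNA insertion line, named *kaku4*-2 in the labels, without a treatment or transgene. No second allele and no rescued line was among the libraries used here, and the methods describe each sample as an independent collection of leaves. *KAKU4* itself had 0.739, 1.26 and 0.943 FPKM in the *kaku4* libraries, against 6.41, 5.45 and 5.71 FPKM in the WT libraries, so that 16.8% of the WT mean was left.

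Glutathione transferases join the tripeptide glutathione to electrophilic compounds, and ATP-driven pumps of the ABCC family then move the conjugates into the vacuole. The tau and phi classes hold most of the plant enzymes of this kind. They are known for detoxifying herbicides and products of oxidative stress, for steps in camalexin and glucosinolate metabolism, and for carrying small molecules such as auxin or anthocyanins without converting them. Many of them are induced by salicylic acid, by electrophiles and by hydrogen peroxide, in part through TGA factors, which bind the sequence TGACG.

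Some facts of the libraries bear on every value below. The FPKM summed over all loci came to 953041 to 1188694 in the *kaku4* libraries and 1412227 to 1559944 in the WT libraries. Replicate 1 of each genotype had summed chloroplast FPKM of 30587 in *kaku4* and 44363 in WT, against 499 to 945 in the other 4 libraries. Across 20461 genes the log2 fold change followed transcript length, with a Spearman correlation of 0.59 over genes that share the same 6 libraries. The tested members are short, with transcripts of 760 to 1748 nucleotides and a median of 1112.5, against 1688 for all genes tested. Of 3 leaf markers, *RBCS1A* averaged 17338 FPKM in *kaku4* and 14515 FPKM in WT and *RCA* 3390 and 2073 FPKM, whereas *LHCB1.3* was listed at 0 in 5 libraries and had 40368 FPKM in *kaku4* replicate 2. A listed 0 may therefore be a failed estimate, and groups that hold one are given per library without a printed mean. The filters, limma fits, sums and counts by average level below still include listed zeros as values. The 2 phloem markers summed to 67.7 to 82.1 FPKM in *kaku4* and 41.3 to 46.6 FPKM in WT, and the 3 root markers to 24.5 to 33.1 and 17.8 to 23.2 FPKM, with *COBL9* at 0 in 2 libraries of each genotype. Of the root markers *PYK10* averaged 18.2 FPKM in *kaku4* and 7.94 FPKM in WT, whereas *SHR* averaged 10.7 and 13.2 FPKM with overlap. The 2 guard cell markers summed to 4.43 to 8.05 FPKM in *kaku4* and 6.44 to 9.70 FPKM in WT, the 3 flower markers to 0.231 to 0.367 and 0.970 to 1.15 FPKM, and the 2 seed markers with a value to 0.0498 to 0.253 and 0.0518 to 0.115 FPKM. Of the guard cell markers *MYB60* averaged 3.64 FPKM in *kaku4* and 6.35 FPKM in WT, whereas *KAT1* averaged 2.55 and 1.43 FPKM with overlap. The sums of root and of guard cell markers thus join genes that went in opposite directions. The part of cell composition in the results below was not tested, and in whole leaves fewer cells of a type and less RNA per cell cannot be told apart.

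The members moved in both directions and by very different amounts. A gene was called when its log2 fold change (log2FC, *kaku4* over WT), computed on log2(FPKM + 0.1), was at least 1 in size and its adjusted p was at most 0.05 (limma, Benjamini-Hochberg over all 20618 genes tested). By this rule 7 of the 36 tested members rose in *kaku4*, namely *GSTU1*, *GSTU2*, *GSTU3*, *GSTU10*, *GSTU11*, *GSTU12* and *GSTF2*, which is 19.4% against 16.4% of all genes tested. Another 6 members fell, *GSTU5*, *GSTU23*, *GSTU26*, *GSTF4*, *GSTF11* and *GSTF14*, which is 16.7% against 11.5% of all genes. *GSTU2*, listed at 0 in WT, passed the filter on low values only through its *kaku4* libraries. A filter of 1 FPKM left out *GSTU2* and *GSTU12*, among others. Of the 31 members it kept, 5 rose (16.1%, against 16.7% of all genes) and 5 fell (16.1%, against 12.9%). Among these 5 rises *GSTU11* passed the filter of 1 FPKM only through its *kaku4* libraries. The median log2FC of the members was -0.01, beside 0.00 for all genes, and the single values ran from -1.51 for *GSTF4* to 5.45 for *GSTU3*. In 11 members every *kaku4* library was above every WT library, as in 33.5% of all genes, in 14 every *kaku4* library was below, as in 31.3% of all genes, and in 11 the genotypes overlapped.

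The calls of rises and falls did not depend on the scaling to the same degree. With the length trend removed from each library, 14 members were called higher, 38.9% against 7.77% of all genes, and they included all 7 of the rises above. The 7 added were *GSTU4*, *GSTU8*, *GSTU9*, *GSTF3*, *GSTF5*, *GSTF9* and *GSTF12*. No member was then called lower by limma, against 5.21% of all genes, although 6 were lower with an unadjusted p no larger than 0.05. Scaling each library to the same FPKM total, that is to TPM, which raised the median log2FC of all genes by 0.47, gave 13 members higher, including the same 7, which is 36.1% against 29.8% of all genes. It gave 0 lower by limma, against 1.99% of all genes, again with 6 lower with an unadjusted p no larger than 0.05. The 6 that fell on the deposited FPKM kept their negative direction under both scalings, with log2FC values of -0.82 to -0.43 with the length trend removed and of -0.995 to -0.63 on the TPM scale, but all were under the fold threshold there. With the length trend removed *GSTU5*, *GSTU26*, *GSTF4* and *GSTF11* still had an adjusted p of 0.0029, 0.027, 0.0081 and 0.026 (limma). A real change tied to transcript length would be removed along with the trend. Members are shorter than most genes and TPM scaling raises *kaku4* values relative to WT, so both settings shift nearly all members upward by construction. That rises were kept and falls were lost under them is therefore not an independent check of the calls.

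**Figure D1:**
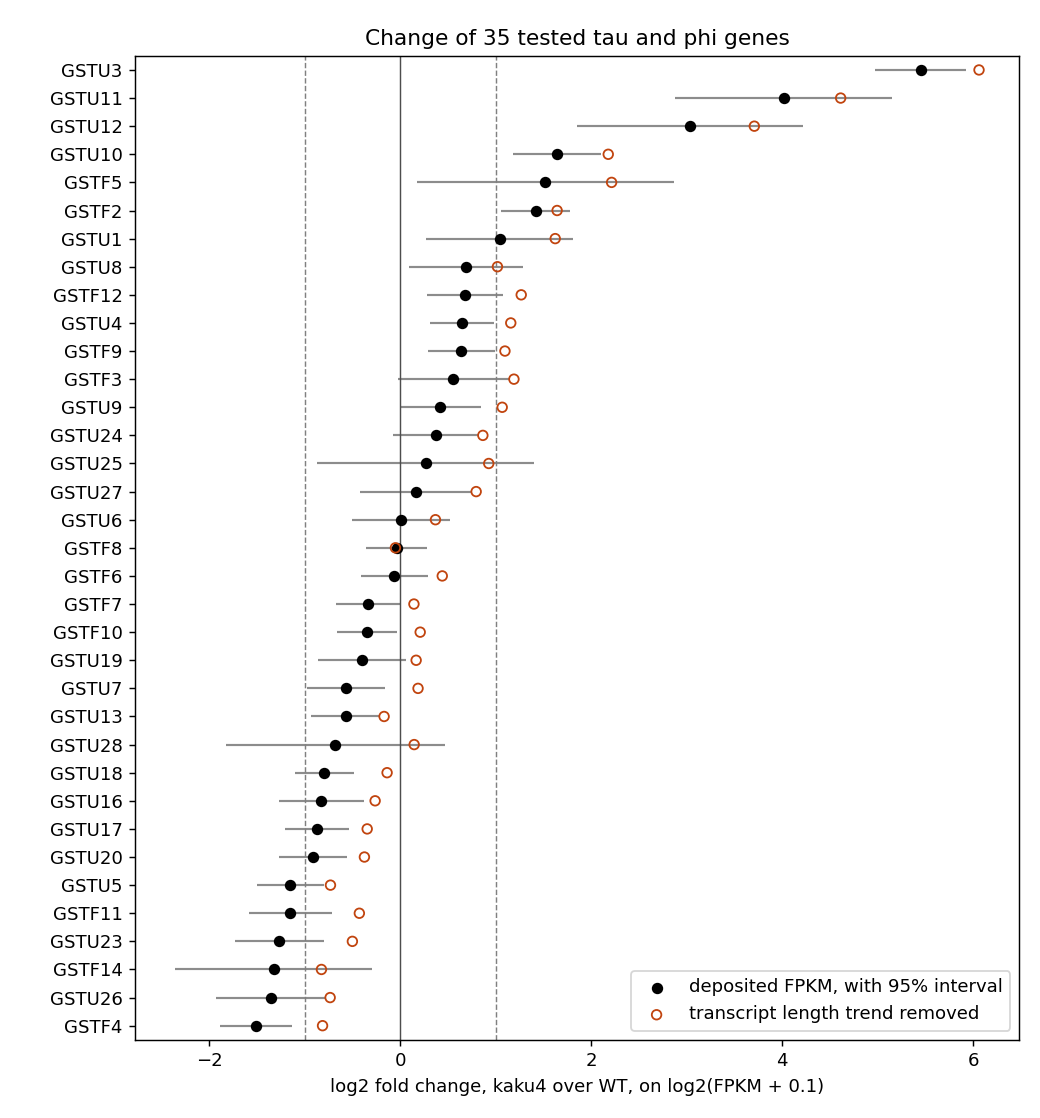
Log2 fold change of *kaku4* over WT for 35 tested members, ordered by size, on the log2(FPKM + 0.1) scale of the horizontal axis. Filled points are the deposited FPKM with the 95% interval of limma, open circles the values with the length trend removed, and dashed lines mark 1 and -1. *GSTU2* is left out because it is listed at 0 in WT. *GSTU3* stands alone at the top with 5.45, and open circles lie right of the filled points in all members but *GSTF8*.

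The class sums differed more clearly in their ratio than in their total. The 12 phi genes summed to 4147 ± 84.4 FPKM in *kaku4* and 2966 ± 235 FPKM in WT (SD, n = 3 each), whereas the 26 tau genes summed to 1553 ± 218 FPKM in *kaku4* and 2216 ± 46.8 FPKM in WT. Neither pair of sums overlapped, but on the TPM scale the phi sum of *kaku4* was 2.00 times that of WT and the tau sum 0.996 times, so the lower tau sum was not seen on that scale. The ratio of phi to tau within a library does not depend on that scaling. It was 2.39, 3.12 and 2.60 in the *kaku4* libraries, against 1.22, 1.37 and 1.43 in the WT libraries. Removal of the length trend, which acts gene by gene, was not applied to the sums or to this ratio. In total the members reached 5701 ± 262 FPKM in *kaku4* and 5181 ± 244 FPKM in WT (SD, n = 3 each), and here the lowest *kaku4* library (5492 FPKM) was close to the highest WT library (5452 FPKM). On the TPM scale the total was 1.57 times that of WT, with 5043 to 5762 TPM in the *kaku4* libraries and 3191 to 3621 TPM in the WT libraries.

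**Figure D2:**
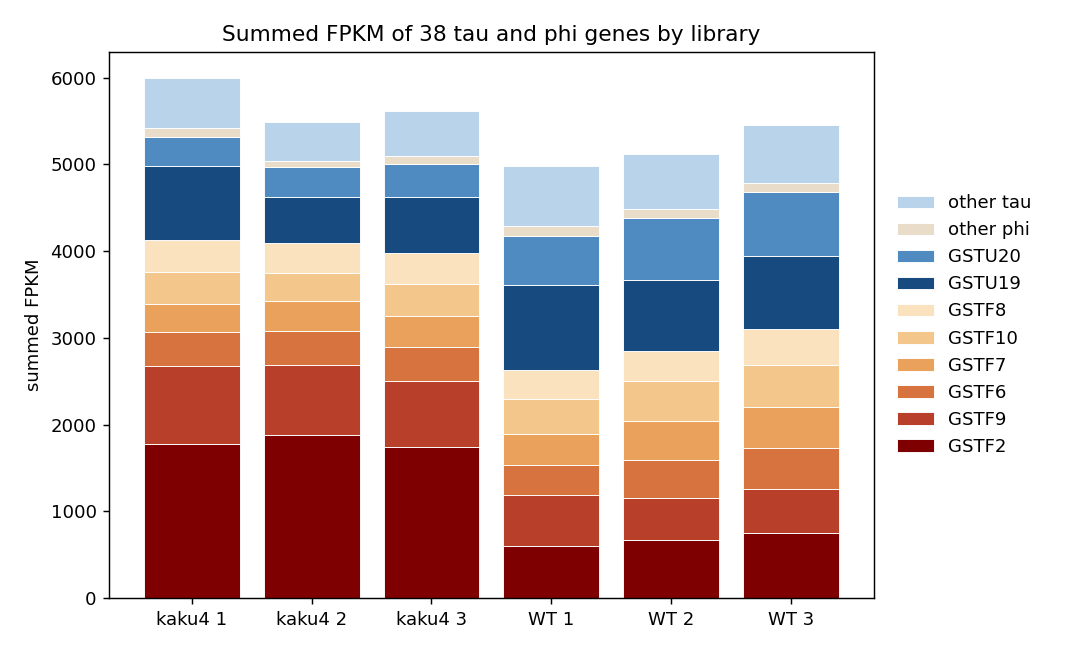
Summed FPKM of the 38 members with a value in each of the 6 libraries, *kaku4* at the left and WT at the right, stacked by the 8 genes with the most FPKM and by the rest of each class. Phi genes are in red and sand and tau genes in blue. The *GSTF2* block at the base makes up 31.6% of the *kaku4* sums and 13.0% of the WT sums on average.

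Most of the summed FPKM came from a few genes. Of the members, 9 were above 100 FPKM on average in both genotypes, *GSTU13*, *GSTU19*, *GSTU20*, *GSTF2*, *GSTF6*, *GSTF7*, *GSTF8*, *GSTF9* and *GSTF10*. At the other end 6 were under 1 FPKM in both, *GSTU2*, *GSTU15*, *GSTU22*, *GSTU25*, *GSTF5* and *GSTF14*. *GSTF2* was the abundant gene that rose, and the members that rose with it were low in WT, where 6 of the 7 called higher were under 5 FPKM on average.

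**Figure D3:**
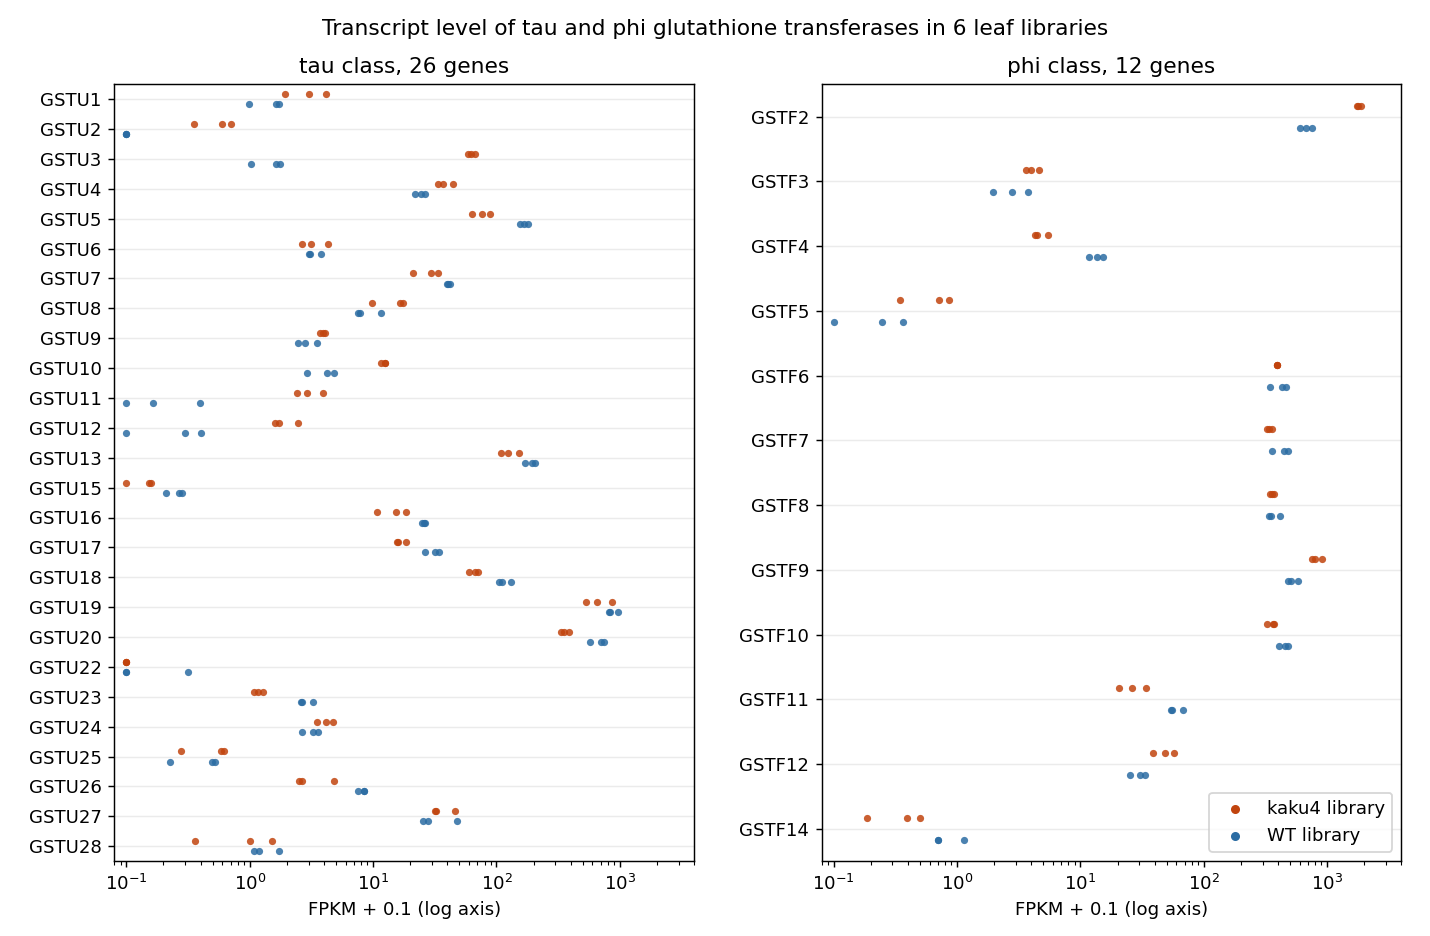
FPKM + 0.1 on a log axis for the 26 tau genes and the 12 phi genes with a value, with 1 point per library, *kaku4* in red above WT in blue. Genes listed at 0 sit at the left edge. *GSTU3*, *GSTU11* and *GSTU12* show the widest gaps among the tau genes, and *GSTF2* is the highest member in *kaku4*.

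The tandem cluster *GSTU1* to *GSTU7* lies on the minus strand of chromosome 2 (TAIR10.1, chr2:12617936-12632538), each gene with 2 exons. Neighbours in it moved in opposite directions. *GSTU3* (AT2G29470) had 62.3, 59.1 and 67.4 FPKM in the *kaku4* libraries, against 0.933, 1.53 and 1.67 FPKM in the WT libraries, a 45.7-fold difference of the means with a log2FC of 5.45 (SE 0.21, adjusted p = 5.1e-06, limma). It ranked 2200 of the 23050 loci in *kaku4* and 15331 in WT. *GSTU5* (AT2G29450) had 88.3, 62.7 and 76.4 FPKM in *kaku4*, against 180.1, 166.6 and 153.8 FPKM in WT, with a log2FC of -1.15 (SE 0.15, adjusted p = 6.6e-04, limma). With the length trend removed it had -0.73 and was no longer called.

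*GSTU4* (AT2G29460), next to *GSTU3* and 81.6% identical to it in coding sequence, had 33.2, 36.6 and 44.0 FPKM in *kaku4*, against 21.7, 24.3 and 26.2 FPKM in WT. Its log2FC of 0.65 (adjusted p = 0.0056, limma) was under the fold threshold, which it passed with the length trend removed (1.16) and on the TPM scale (1.16). *GSTU1* (AT2G29490) had 4.08, 1.84 and 2.91 FPKM in *kaku4*, against 0.886, 1.53 and 1.63 FPKM in WT, with a log2FC of 1.04 (SE 0.34, adjusted p = 0.027, limma). This call was lost with replicates 2 and 3 only (0.52) and with median centring (0.85), and it rested on single libraries, being lost without *kaku4* replicate 1 (0.78), without *kaku4* replicate 3 (1.02, adjusted p = 0.087, limma), without WT replicate 1 (0.79) and without WT replicate 2 (1.15, adjusted p = 0.053, limma). *GSTU2* (AT2G29480) had 0.602, 0.254 and 0.492 FPKM in *kaku4* and was listed at 0 in all WT libraries, so no fold is given. It passed the criteria with a pseudocount of 0.1 (adjusted p = 0.0029, limma) and not with a pseudocount of 1.

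*GSTU6* had 4.25, 2.53 and 3.05 FPKM in *kaku4*, against 2.98, 3.68 and 2.91 FPKM in WT, and the genotypes overlapped. *GSTU7* had 33.7, 20.9 and 29.3 FPKM in *kaku4*, against 42.1, 39.4 and 40.4 FPKM in WT, a log2FC of -0.57 that turned to 0.19 with the length trend removed. The cluster as a whole summed to 211 ± 23.7 FPKM in *kaku4* and 237 ± 11.1 FPKM in WT (SD, n = 3 each). The cluster sum depends on the unequal FPKM totals of the libraries and was not put on the TPM scale, so the direction of its difference is uncertain. Within that sum *GSTU3* took 29.9% ± 2.33 in *kaku4* and 0.586% ± 0.188 in WT, and *GSTU5* took 35.8% ± 2.81 in *kaku4* and 70.2% ± 2.27 in WT (SD, n = 3 each). The make-up of the cluster thus differed far more than its sum, by shares that do not depend on a constant factor per library. Removal of the length trend acts gene by gene and was not applied to these shares.

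**Figure D4:**
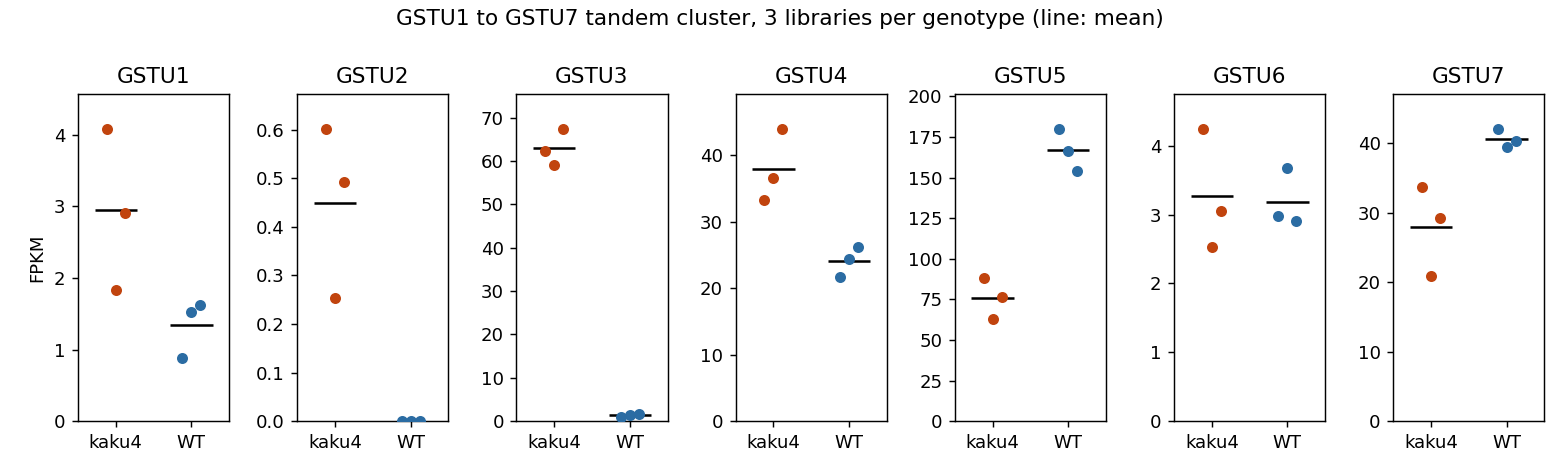
FPKM of *GSTU1* to *GSTU7* on a linear vertical axis that starts at 0 and has its own range in each panel, with 1 point per library, *kaku4* left of WT. Lines are means and are left out where a gene is listed at 0. *GSTU3* is above 59 FPKM in every *kaku4* library and under 2 FPKM in every WT library, while *GSTU5* is lower in every *kaku4* library.

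Promoters of members that rose and of a neighbour that was not called are shown for their TGACG letters, which were searched on both strands. Each is the 250 bases before the annotated RefSeq start (TAIR10.1), 5′ to 3′ on the strand of the gene and clear of other annotated genes, with TGACG or its reverse complement CGTCA in capitals. *GSTU1* (chr2:12632539-12632788, minus strand) had TGACG at -77 and -65 from the start and *GSTU3* (chr2:12629641-12629890, minus strand) at -105. *GSTU11* (chr1:26338819-26339068, minus strand) had it on the other strand at -72, whereas *GSTU12* (chr1:26335631-26335880, minus strand) and the uncalled *GSTU4* (chr2:12627892-12628141, minus strand) had none. Elsewhere in the cluster *GSTU5*, which fell, and the uncalled *GSTU6* and *GSTU7* had TGACG in their windows, not shown, so its presence did not follow the calls there.
GSTU1: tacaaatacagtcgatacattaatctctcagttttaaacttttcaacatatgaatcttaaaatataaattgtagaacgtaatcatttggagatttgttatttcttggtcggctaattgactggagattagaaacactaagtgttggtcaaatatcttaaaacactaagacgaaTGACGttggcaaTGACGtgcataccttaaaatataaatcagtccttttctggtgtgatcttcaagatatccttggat
GSTU3: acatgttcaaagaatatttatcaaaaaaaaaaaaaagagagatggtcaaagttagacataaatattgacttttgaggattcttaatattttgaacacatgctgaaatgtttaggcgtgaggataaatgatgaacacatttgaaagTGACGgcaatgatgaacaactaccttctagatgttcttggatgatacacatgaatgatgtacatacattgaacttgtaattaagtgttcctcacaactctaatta
GSTU11: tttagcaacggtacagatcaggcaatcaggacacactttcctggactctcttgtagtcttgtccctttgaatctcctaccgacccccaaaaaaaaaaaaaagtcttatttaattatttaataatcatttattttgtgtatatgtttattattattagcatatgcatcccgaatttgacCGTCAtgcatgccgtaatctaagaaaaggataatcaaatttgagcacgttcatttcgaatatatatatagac
GSTU12: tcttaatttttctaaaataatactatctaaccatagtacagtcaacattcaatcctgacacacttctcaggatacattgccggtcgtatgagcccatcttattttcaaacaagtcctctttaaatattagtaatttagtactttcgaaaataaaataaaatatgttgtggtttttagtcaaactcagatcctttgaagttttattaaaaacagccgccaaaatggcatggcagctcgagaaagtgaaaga
GSTU4: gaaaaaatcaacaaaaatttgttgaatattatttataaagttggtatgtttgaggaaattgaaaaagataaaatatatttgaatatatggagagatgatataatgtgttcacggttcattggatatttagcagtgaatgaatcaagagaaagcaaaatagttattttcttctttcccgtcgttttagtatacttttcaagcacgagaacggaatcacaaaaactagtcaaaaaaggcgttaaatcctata

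TGACG was present in 14 of the 41 member windows, 34.1% against 18.6% of the 27443 windows of all genes. By direction it was in 3 of the 7 windows of members that rose, in 1 of 6 that fell, in 9 of 23 that were not called and in 1 of 5 that were not tested. TTGAC, the core of the W box bound by WRKY factors, was in 24 member windows (58.5%, against 44.9% of all windows), 5 of them in members that rose and 4 in members that fell. It can overlap TGACG, as in TTGACG. The G box CACGTG was in 3 member windows (7.32%, against 6.49% of all windows), none of them in a called member. Of the members that rose, *GSTU2*, *GSTU10* and *GSTF2* have a window that overlaps a neighbouring gene. These windows are not shown, and none of them held TGACG.

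Outside the cluster, 3 further tau genes rose. *GSTU10* (AT1G74590) had 12.4, 11.4 and 12.4 FPKM in *kaku4*, against 2.80, 4.71 and 4.10 FPKM in WT, with a log2FC of 1.65 (SE 0.20, adjusted p = 4.9e-04, limma), and this call held under every alternative run. *GSTU11* and *GSTU12* lie beside each other on chromosome 1, and both were near 0 in WT. *GSTU11* (AT1G69930) had 2.32, 3.81 and 2.82 FPKM in *kaku4*, against 0.0642, 0.297 and a listed 0 FPKM in WT. *GSTU12* (AT1G69920) had 1.49, 2.36 and 1.61 FPKM in *kaku4*, against 0.302, 0.200 and a listed 0 FPKM in WT. Their log2FC values of 4.02 (SE 0.50, adjusted p = 5.1e-04, limma) and 3.04 (SE 0.52, adjusted p = 0.0017, limma) depend on the pseudocount, and became 1.82 and 1.27 with a pseudocount of 1. The coding sequence of each was nearest to that of *GSTU13*, with an identity of 64.1% for *GSTU11* and 65.2% for *GSTU12*.

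The most abundant tau genes were lower or overlapped. *GSTU19* (AT1G78380), a main glutathione transferase of Arabidopsis leaves that is induced by herbicide safeners, had 856.7, 526.6 and 649.6 FPKM in *kaku4*, against 974.8, 822.6 and 835.4 FPKM in WT. Its genotypes overlapped, with *kaku4* replicate 1 inside the WT range, and its log2FC of -0.40 (adjusted p = 0.12, limma) turned to 0.17 with the length trend removed. *GSTU20* (AT1G78370), whose product interacts with the jasmonate-conjugating enzyme JAR1, had 332.5, 353.9 and 384.4 FPKM in *kaku4*, against 573.6, 708.0 and 744.0 FPKM in WT. These values did not overlap, and the log2FC of -0.91 (SE 0.15, adjusted p = 0.0016, limma) was just under the fold threshold, which it passed without WT replicate 1 (-1.03), and it was -0.37 with the length trend removed. *GSTU13*, which takes part in the metabolism of indole glucosinolates, had 152.6, 108.0 and 124.7 FPKM in *kaku4*, against 205.7, 169.4 and 193.1 FPKM in WT, with a log2FC of -0.57 (adjusted p = 0.015, limma), and of -0.17 with the length trend removed.

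*GSTU23* and *GSTU26*, both under 10 FPKM, fell. *GSTU23* (AT1G78320) had 1.19, 1.07 and 0.993 FPKM in *kaku4*, against 2.51, 2.58 and 3.16 FPKM in WT, with a log2FC of -1.26 (SE 0.20, adjusted p = 0.0013, limma). *GSTU26* (AT1G17190) had 4.75, 2.55 and 2.43 FPKM in *kaku4*, against 7.50, 8.35 and 8.28 FPKM in WT, with a log2FC of -1.35 (SE 0.25, adjusted p = 0.0025, limma). Both kept their direction but not their call with the length trend removed, at -0.50 and -0.73. *GSTU17*, known for a part in drought and abscisic acid responses, and its neighbour *GSTU18* summed to 82.6 ± 4.26 FPKM in *kaku4* and 145 ± 16.7 FPKM in WT (SD, n = 3 each). Their annotated ends overlap on the same strand, so reads there could be assigned to either.

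The remaining tau genes were not called. *GSTU8* had 17.3, 9.61 and 16.5 FPKM in *kaku4*, against 7.38, 11.4 and 7.68 FPKM in WT, and overlapped through *kaku4* replicate 2 and WT replicate 2. *GSTU16* had 18.4, 10.7 and 15.2 FPKM in *kaku4*, against 25.6, 26.3 and 24.9 FPKM in WT, a log2FC of -0.82 without overlap. The log2FC values of *GSTU9*, *GSTU24*, *GSTU25* and *GSTU27* lay between 0.16 and 0.42 and that of *GSTU28* at -0.68, each with an interval that included 0. *GSTU24* and *GSTU25*, which detoxify trinitrotoluene, had means of 4.02 and 0.395 FPKM in *kaku4* and 3.07 and 0.314 FPKM in WT. *GSTU22* was listed at 0 in all *kaku4* libraries and in 2 WT libraries, with 0.218 FPKM in the other, and *GSTU15* had at most 0.0584 FPKM in *kaku4* and 0.183 FPKM in WT.

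Among the phi genes, *GSTF2* (AT4G02520) carried the rise. It encodes a protein known for binding auxin transport inhibitors, camalexin and flavonols, and for induction by ethylene and pathogens. It had 1771, 1883 and 1743 FPKM in the *kaku4* libraries, against 603, 671 and 749 FPKM in the WT libraries, a 2.67-fold difference of the means. Its log2FC of 1.42 (SE 0.16, adjusted p = 3.9e-04, limma) held under every alternative run, and it ranked 65 of the 23050 loci in *kaku4* and 326 in WT. It made up 43.4% ± 1.73 of the phi sum in *kaku4* and 22.7% ± 0.658 in WT (SD, n = 3 each). *GSTF3* is 94.5% identical to it in coding sequence, and the division of reads between them is uncertain. *GSTF3* had 3.49, 4.55 and 3.87 FPKM in *kaku4*, against 2.68, 1.88 and 3.68 FPKM in WT, and its genotypes overlapped.

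*GSTF4* to *GSTF7* form a second tandem group, on the minus strand of chromosome 1. *GSTF4* (AT1G02950) fell to 4.34, 4.21 and 5.39 FPKM in *kaku4*, against 11.6, 15.0 and 13.6 FPKM in WT, with a log2FC of -1.51 (SE 0.16, adjusted p = 3.6e-04, limma), and of -0.81 with the length trend removed. *GSTF5* had 0.245, 0.767 and 0.609 FPKM in *kaku4*, against a listed 0, 0.265 and 0.145 FPKM in WT, with overlap between the genotypes and an adjusted p of 0.053 (limma). It was called higher with replicates 2 and 3 only (1.39), without *kaku4* replicate 1 (1.92) and without WT replicate 2 (1.93). *GSTF6* (AT1G02930), which joins glutathione to a precursor of camalexin, had 389.0, 395.9 and 395.4 FPKM in *kaku4*, against 341.7, 434.6 and 464.9 FPKM in WT. Its log2FC was -0.06 with a 95% interval from -0.41 to 0.29. *GSTF7*, 94.3% identical to *GSTF6* in coding sequence and therefore uncertain in the same way, had 323.4, 338.4 and 354.6 FPKM in *kaku4*, against 359.4, 448.5 and 478.4 FPKM in WT. On the deposited FPKM *GSTF4* was the only one of this group to be called.

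*GSTF9* and *GSTF10* are tandem neighbours on chromosome 2 with 77.6% identity in coding sequence. *GSTF9* (AT2G30860) had 901.8, 801.4 and 760.9 FPKM in *kaku4*, against 584.5, 483.0 and 511.9 FPKM in WT, with a log2FC of 0.64 (SE 0.15, adjusted p = 0.0072, limma), under the fold threshold, and of 1.10 with the length trend removed. *GSTF10* had 369.9, 325.6 and 364.1 FPKM in *kaku4*, against 404.3, 458.8 and 483.4 FPKM in WT, with a log2FC of -0.34 (adjusted p = 0.062, limma) that turned to 0.21 with the length trend removed. *GSTF8*, a chloroplast enzyme whose promoter has long served to study responses to salicylic acid and hydrogen peroxide, had 371.2, 345.6 and 355.4 FPKM in *kaku4*, against 336.2, 351.0 and 416.7 FPKM in WT. Its log2FC was -0.04 with a 95% interval from -0.35 to 0.28, and 0.48 on the TPM scale.

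*GSTF11* and *GSTF12* are each other's nearest phi gene, 75.4% identical in coding sequence, and differed in direction. *GSTF11* (AT3G03190), linked to aliphatic glucosinolate synthesis, had 33.8, 20.6 and 26.3 FPKM in *kaku4*, against 67.7, 53.9 and 55.0 FPKM in WT, with a log2FC of -1.15 (SE 0.19, adjusted p = 0.0015, limma). Without *kaku4* replicate 2 it was -0.97 and under the fold threshold, and with the length trend removed it was -0.43. *GSTF12* (AT5G17220), also known as *TT19* and needed to bring anthocyanins into the vacuole, had 56.9, 38.4 and 48.2 FPKM in *kaku4*, against 25.1, 33.2 and 30.6 FPKM in WT. Its values did not overlap, and its log2FC of 0.68 (SE 0.17, adjusted p = 0.011, limma) passed the fold threshold with the length trend removed (1.27). *GSTF14* (AT1G49860) had 0.401, 0.290 and 0.0852 FPKM in *kaku4*, against 1.05, 0.600 and 0.607 FPKM in WT. Its call (log2FC -1.32, SE 0.45, adjusted p = 0.033, limma) was lost without any 1 of the 3 WT libraries, without *kaku4* replicate 2 and without *kaku4* replicate 3, at values of -1.44 to -0.91.

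Members alike in coding sequence did not always change alike. Among tested members with a fold, 21 pairs shared at least 75% of their coding sequence, and 10 of these pairs had log2FC values of opposite sign. This count was 6 with the length trend removed and 6 on the TPM scale. On the deposited FPKM the limma intervals of *GSTU6*, *GSTU19*, *GSTU24*, *GSTU25*, *GSTF3*, *GSTF6* and *GSTF7* included both signs, so their direction is uncertain. Among the pairs of opposite sign, only *GSTU1* with *GSTU5*, *GSTF9* with *GSTF10* and *GSTF11* with *GSTF12* had intervals of a single sign in both genes. The difference within a pair was under 0.5 on the log2 scale in 4 pairs, and it ran from 0.08 between *GSTU17* and *GSTU18* to 4.80 between *GSTU3* and *GSTU4*. These pairs share genes, and pairs with *GSTF2* and *GSTF3* or with *GSTF6* and *GSTF7* rest on values that are uncertain between the copies.

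Few glutathione transferases of other classes were called. Of 12 genes of the zeta, theta, lambda, DHAR and TCHQD groups, 0 were called higher by limma, against 16.4% of all genes. However, 3 (*GSTZ1*, *GSTT2* and *GSTL1*) were higher with an unadjusted p no larger than 0.05. Of the 12, 2 were called lower, 16.7% against 11.5% of all genes. *DHAR3*, which regenerates ascorbate with glutathione in the chloroplast, had 127.0, 132.2 and 134.4 FPKM in *kaku4*, against 269.5, 313.7 and 309.6 FPKM in WT, with a log2FC of -1.18 (adjusted p = 3.1e-04, limma), and of -0.58 with the length trend removed. *TCHQD* fell by 1.03 on the log2 scale and by 1.05 with the length trend removed, where *GSTL1* was called higher (1.38). That setting called 8.33% of the 12 in each direction, against 7.77% of all genes higher and 5.21% lower. In the supply of glutathione, 1 of 7 genes rose (14.3%, against 16.4% of all genes). *GSH1*, which encodes the rate-limiting enzyme of glutathione synthesis, had 63.7, 81.5 and 67.4 FPKM in *kaku4*, against 33.5, 34.0 and 36.0 FPKM in WT, with a log2FC of 1.03 (adjusted p = 5.6e-04, limma), and of 0.52 with the length trend removed.

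Genes that act on the conjugates are next in the pathway. Of 8 tested genes of conjugate transport and turnover, 5 rose (62.5%, against 16.4% of all genes) and 1 fell (12.5%, against 11.5%). The vacuolar pumps *ABCC1*, *ABCC2* and *ABCC3* had log2FC values of 1.65, 1.45 and 2.16, phytochelatin synthase *PCS1* had 1.18 and 5-oxoprolinase *OXP1* had 1.34. With the length trend removed none of these 5 was called by limma, and their values lay between 0.05 and 0.91, with *ABCC3* at 0.80 (adjusted p = 0.0025) and *PCS1* at 0.91 (adjusted p = 0.0017). *GGT1*, a γ-glutamyl transferase that degrades glutathione and its conjugates outside the cell, fell to 10.5, 12.3 and 11.6 FPKM in *kaku4*, against 30.8, 32.3 and 34.1 FPKM in WT, with a log2FC of -1.49, and of -1.93 with the length trend removed. Among 10 TGA factors and partners 1 rose (10%, against 16.4% of all genes), the TGA-binding coactivator *SCL14* with a log2FC of 1.17 (0.43 with the length trend removed). Of the 10, 7 had every *kaku4* library above every WT library, as had 33.5% of all genes. With a pseudocount of 1 *SCL14* had 0.97 and was not called, and neither was *TCHQD* (-0.87).

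In 4 lists of pathways that work with these enzymes 11 genes rose, and all 11 were also called with the length trend removed. Of 9 detoxification genes known to be induced together with these enzymes, 4 rose (44.4%, against 16.4% of all genes). They were the glycosyltransferases *UGT74E2*, *UGT73B3* and *UGT73B4* with log2FC values of 3.73, 2.22 and 2.08 and the cytochrome P450 *CYP81D11* with 1.47. *CYP81D11* averaged 0.0913 FPKM in WT and 0.414 FPKM in *kaku4*. It therefore passed the filter on low values only through its *kaku4* libraries, and it is counted among these 4 and the 11 above. A filter of 1 FPKM kept 6 of these genes, of which 2 rose (33.3%, against 16.7% of all genes). These were *UGT74E2* and *UGT73B3*, which passed that filter only through their *kaku4* libraries. *UGT74E2* had 2.14, 2.00 and 2.82 FPKM in *kaku4*, against a listed 0, 0.0789 and 0.230 FPKM in WT, so its fold depends on the pseudocount. With a pseudocount of 1 it had 1.59 and *UGT73B3* 1.11, while *UGT73B4* (0.70) and *CYP81D11* (0.37) were no longer called. Of 4 camalexin genes 3 rose (75%, against 16.4% of all genes). *PAD3*, the last step of camalexin synthesis, had 25.3, 27.7 and 25.8 FPKM in *kaku4*, against 5.58, 5.59 and 5.71 FPKM in WT, with a log2FC of 2.20 (adjusted p = 2.6e-05, limma). *CYP79B2* and *CYP71A13* had 2.00 and 1.21, whereas *GGP1*, which processes the glutathione conjugate on this route, had -0.54.

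Of 5 anthocyanin genes 3 rose (60%, against 16.4% of all genes), *DFR*, *UF3GT* and the regulator *TT8*, with log2FC values of 2.26, 2.34 and 1.75. *TT8* averaged 0.691 FPKM in *kaku4* and 0.139 FPKM in WT, and with a pseudocount of 1 it had 0.57 and was not called. The regulator *PAP1* had -0.34 with overlapping genotypes. Of 7 core glucosinolate genes 1 rose (14.3%, against 16.4% of all genes), *CYP83B1* of the indole branch with 1.68. *CYP79F1* and *MAM1* of the aliphatic branch had 0.89 and 0.79, under the fold threshold. Over these 8 lists together, 18 of 62 tested genes rose (29.0%, against 16.4% of all genes) and 3 fell (4.84%, against 11.5%), with a median log2FC of 0.62. With the length trend removed 13 were called higher (21.0%, against 7.77% of all genes), 11 of them among the 18, and 2 lower (3.23%, against 5.21%).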

How the data were processed

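The authors aligned reads of 6 leaf libraries to TAIR10 with TopHat2 2.0.9, calculated FPKM with Cufflinks at default settings and deposited the FPKM values in 1 table. The 1442 of 24492 loci marked as missing in all libraries were left out, and 2 H3K27me3 ChIP samples were not analysed. Strand settings were not given in the sources used here, so reads of overlapping or antisense genes cannot be told apart. Counts and depth per gene are unknown, so precision comes only from the spread between libraries.

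The 20618 genes that averaged 0.1 FPKM or more were tested on log2(FPKM + 0.1) with limma 3.58.1 in R 4.3.3 (mean-variance trend, no covariates, two-sided, Benjamini-Hochberg adjustment). An exact permutation test of 3 against 3 libraries cannot go below 0.1 and was not used. Alternatives were other pseudocounts (0.01, 1) and filters (none, 1 FPKM), median centring, TPM scaling, removal of the transcript length trend (lowess, span 0.4, per library, 20461 genes), a replicate block, eBayes without trend, replicates 2 and 3 only, and leaving out each library. All members could be named, with library values for those called, the 5 most abundant and the tandem clusters, and any gene of the pathway lists. Library values of *GSTU8*, *GSTU16*, *GSTF3*, *GSTF8*, *GSTF10* and *GSTF12* were added after they were seen. Members and lists were chosen with earlier results of these data known. Coordinates, lengths, promoters and coding sequences (aligned globally with Biopython 1.88) come from RefSeq TAIR10.1, matched by locus. The fit was tested on simulated data.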

Additional observations from a re-analysis of the deposited data

How the results depend on the processing

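Among all genes, the number called higher (3380) became 1743 with a pseudocount of 1, 6148 with TPM scaling, 1602 with the length trend removed and 1640 with a replicate block and the length trend removed. The number called lower (2371) became 3846 with median centring, which moved the median of all genes by -0.19, and 411, 1075 and 1100 with TPM scaling, the length trend removed, and the block and length together. The members called higher (7) became 13, 14 and 14 under these last settings, and the members called lower (6) became 0, 0 and 0 by limma, with 6, 6 and 5 lower with an unadjusted p no larger than 0.05. Median centring gave 6 higher and 9 lower, adding *GSTU16*, *GSTU17* and *GSTU20*. The pathway lists (18 higher and 3 lower) had 35 higher and 0 lower by limma with TPM scaling (3 lower with an unadjusted p no larger than 0.05). The median of the members (-0.01) became -0.21 with median centring, 0.49 with TPM scaling, and 0.41 with the length trend removed, with or without the block. Members are shorter than most genes and TPM scaling raises all *kaku4* values relative to WT, which by construction shifts members upward. The cause of the length trend and of the unequal FPKM totals was not tested.

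Leaving out 1 library gave 2648 to 3767 genes higher and 1616 to 2994 lower, 6 to 7 members higher and 4 to 6 lower, and a median of -0.06 to 0.08. The members whose direction turned included *GSTU7* (-0.57 on the deposited FPKM, adjusted p = 0.024, limma) and *GSTU28* (-0.68), and the rest were within 0.40 of 0. With the length trend removed, with or without the block, these were *GSTU7* (0.19), *GSTU19* (0.17), *GSTU28* (0.15), *GSTF6* (0.44), *GSTF7* (0.15) and *GSTF10* (0.21). With TPM scaling they were *GSTU19* (0.12), *GSTF6* (0.46), *GSTF7* (0.19), *GSTF8* (0.48) and *GSTF10* (0.17). With median centring they were *GSTU6* (-0.18) and *GSTU27* (-0.0334), and with replicates 2 and 3 only *GSTU6* (-0.23). Without single libraries *GSTU6* ranged from -0.184 to 0.178, *GSTU25* from -0.127 to 0.642, *GSTU27* from -0.00958 to 0.445, *GSTF6* from -0.192 to 0.0298 and *GSTF8* from -0.0983 to 0.0564. A pseudocount of 1 ended the calls of *GSTU1*, *GSTU2*, *GSTU23* and *GSTF14*, and in the lists those of *TCHQD*, *SCL14*, *CYP81D11*, *UGT73B4* and *TT8*.

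Libraries of the same number correlated in their deviations from the genotype means with r = 0.31 for number 1, 0.08 for number 2 and 0.01 for number 3, so the numbers were not taken to pair the libraries. Number 1 also marks the 2 libraries with high chloroplast FPKM. Replicate 1 correlated best with its own number and the others did not. A replicate block gave 3410 genes higher and 2481 lower, and among the members 8 higher, adding *GSTF5* (adjusted p = 0.015, limma), and 6 lower. FPKM without counts leaves the precision of members under 1 FPKM unknown.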
